A study of Mus musculus with 8 samples.

Results

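The recurring huntingtin (HTT) peaks at gene 3′ ends are 197 genomic regions near the ends of 196 protein-coding genes. Peaks of the 4 HTT chromatin immunoprecipitation (ChIP) libraries on chromosomes 1 to 19 were merged wherever they overlapped by at least 1 bp, which gave 153005 merged regions. A region was kept when 4 conditions held. It had a peak in at least 2 libraries, its midpoint lay within 1 kb of the 3′ end of a protein-coding gene, that midpoint was in no coding exon, and it was more than 1 kb from every annotated start site. Of 2485 merged regions that met the position conditions, 2288 had a peak in 1 library, 176 in 2, 21 in 3 and 0 in 4. The 197 that recurred were 7.93% of them (95% Wilson interval 6.93% to 9.06%), and 9.06% of all merged regions recurred. The members were chosen by a measured value, the presence of a called peak in at least 2 libraries, and every statement on how many libraries held a peak is a description with no test. The 196 genes were 0.915% of the 21418 protein-coding genes considered, and Med25 had 2 regions.

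The libraries were made from the cortex of male C57BL/6J-background mice injected or left untreated at 4 months of age. Htt+/+ mice carry 2 unmodified copies of the huntingtin gene, and HttQ111/+ mice carry 1 knock-in copy in which mouse exon 1 was replaced by human HTT exon 1 with a lengthened CAG tract. The treated mice of each genotype received 500 µg of an antisense oligonucleotide (ASO) that targets normal and mutant huntingtin RNA alike into the ventricle on one side of the brain, and cortex of that side was taken 4 weeks later. The untreated mice received nothing, so an effect of the injection itself cannot be told apart from an effect of the oligonucleotide. ChIP used the anti-huntingtin antibody EPR5526, which binds both forms of the protein. Of the 8 samples, 4 were ChIP libraries and 4 were inputs that the authors merged into 1 control, and the inputs' own data were not analysed here. The labels state that 3 mice went into each pool, whereas the study's methods give fewer for the ASO cortices, and which number holds is not known here. Each group held 1 library, so no comparison between groups could be tested against replicate spread, and the Wilson and Poisson intervals below cover counting error only.

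HTT is a large scaffold protein of the cytoplasm and nucleus that binds many partners, among them transcription regulators. At the 3′ end of a gene the nascent RNA is cut and polyadenylated, usually a short distance after an AATAAA signal or its variant ATTAAA, and RNA polymerase II goes on past that site before it terminates. Most mammalian DNA has lost the dinucleotide CpG, and stretches that keep it, called CpG islands, lie mostly at start sites and only rarely at gene ends.

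The sequences of 8 regions with a peak in 3 libraries are shown because they hold both kinds of DNA found among the members. Each is the 120 bases around the summit with the highest fold enrichment, read 5′ to 3′ on the strand of the gene from NCBIM37 (mm9), and lies in no annotated exon. Capitals mark CpG dinucleotides. The first 4 are CpG-rich: Camk2g at chr14:21553482-21553601 on the minus strand, Scn8a at chr15:100876830-100876949 on the plus strand, Mafa at chr15:75577009-75577128 on the minus strand and Gm3435 at chr17:15160680-15160799 on the plus strand.
Camk2g: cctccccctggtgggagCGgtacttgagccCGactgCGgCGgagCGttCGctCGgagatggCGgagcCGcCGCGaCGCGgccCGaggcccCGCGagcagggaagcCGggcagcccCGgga
Scn8a: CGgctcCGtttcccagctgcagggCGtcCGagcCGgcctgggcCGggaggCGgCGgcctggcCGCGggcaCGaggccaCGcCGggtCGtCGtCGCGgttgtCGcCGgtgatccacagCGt
Mafa: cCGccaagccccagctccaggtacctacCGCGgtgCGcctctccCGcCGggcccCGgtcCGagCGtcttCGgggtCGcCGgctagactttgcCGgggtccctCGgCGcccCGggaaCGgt
Gm3435: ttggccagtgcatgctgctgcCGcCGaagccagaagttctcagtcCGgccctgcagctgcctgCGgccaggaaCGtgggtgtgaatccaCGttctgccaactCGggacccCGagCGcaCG
These sequences held 18, 20, 17 and 10 CpG dinucleotides and were 77.5%, 77.5%, 75.8% and 65.8% G or C. The other 4 are CpG-poor, and come from the region with the most reads (Gm6483 at chr8:19698772-19698891, plus strand), from 2 regions with high fold enrichment in 3 libraries (Anapc7 at chr5:122895047-122895166, plus strand, and Tll2 at chr19:41157760-41157879, minus strand) and from a repeat (Rasal2 at chr1:159064987-159065106, minus strand).
Gm6483: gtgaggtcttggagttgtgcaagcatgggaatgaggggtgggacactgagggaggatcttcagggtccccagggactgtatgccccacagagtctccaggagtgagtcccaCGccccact
Anapc7: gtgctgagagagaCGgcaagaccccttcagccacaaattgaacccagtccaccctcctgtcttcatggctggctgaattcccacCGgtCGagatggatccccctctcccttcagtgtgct
Tll2: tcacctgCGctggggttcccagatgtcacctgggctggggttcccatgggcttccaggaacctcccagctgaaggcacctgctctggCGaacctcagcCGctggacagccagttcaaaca
Rasal2: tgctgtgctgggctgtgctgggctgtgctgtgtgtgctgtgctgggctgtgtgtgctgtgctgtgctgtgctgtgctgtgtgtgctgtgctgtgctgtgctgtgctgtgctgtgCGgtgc
The CpG-poor sequences held 1, 3, 3 and 1 CpG dinucleotides, although their G or C content was 60%, 57.5%, 62.5% and 62.5%. The Rasal2 sequence is a run of short repeats. Of 3 words of 31 bases from its region, the median word occurred 149 times in the genome.

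One library stood apart before any comparison. The HttQ111/+ ASO library had 40505 peaks against 41323 to 47957 in the others, although its depth recovered from the peak values was 1.24 times the lowest, against 1 to 1.11 times in the others. Its narrowest peak was 287 bp, against 210 to 230 bp, and over the 256 regions called in all 4 libraries its median fold enrichment was 3.81, against 5.01 to 5.45. Fold enrichment here is the scaled number of ChIP reads at the summit over the local background. Reads at the summit were recovered as whole numbers from the deposited fold enrichment and p-value, and 2 to 4 reads were all that lay under 79.6% to 87.3% of a library's peaks. The lowest deposited fold enrichment was 1.40, and a region without a peak in a library may still hold reads there. Peak lists cannot show the level of the Htt transcript or protein, so neither the knockdown nor the tissue label could be checked here. In bulk cortex, fewer cells with HTT at a site and less HTT per cell cannot be told apart.

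The 197 regions were mostly thin. The library with the most reads at a region held 2 reads at 5 regions, 3 at 52, 4 at 60 and 5 or more at 80, so that 117 (59.4%) had at most 4 reads in every library. The median of this highest number was 4 reads, as it was for recurring regions in introns, in other gene sequence and outside genes, and it was 8 reads at start sites and 6 in coding exons. At 37 members (18.8%, interval 13.9% to 24.8%) at least 2 libraries each had 5 or more reads, against 74.8% of recurring regions at start sites, 46.5% in coding exons, 17.3% in the other sequence of annotated genes (13.8% to 21.3%), 10.7% in introns and 9.07% outside genes. By this measure the members lay below start sites and coding exons and close to this other gene sequence. Their median width was 414 bp, and the summits of different libraries lay a median of 110 bp apart, with 89 regions (45.2%) whose summits lay within 100 bp. In 119 regions 2 libraries' peaks overlapped by at least 50% of each.

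Recurrence at gene ends was close to that in the rest of the genome and far from that at start sites. Of merged regions, 23.5% recurred at start sites (22.8% to 24.2%), 15.9% in coding exons, 6.81% in introns (6.59% to 7.04%) and 7.52% outside genes (7.34% to 7.70%), beside the 7.93% at 3′ ends. A peak in at least 3 libraries was held by 0.845% of merged 3′ end regions, against 1.48% of all merged regions and 7.06% at start sites. No member had a peak in all 4 libraries, where 1.85% of all recurring regions did, and 0 of 197 allows a share of up to 1.52% by 3 counts and 1.91% by the Wilson limit, which includes the share of all recurring regions.

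The density of regions around gene ends was lowest at the end itself. Counting only sequence that met the position conditions, recurring regions had 2.91 midpoints per Mb within 200 bp of the end (95% Poisson interval 1.78 to 4.49, 20 regions). From 200 to 1000 bp upstream, inside the gene, the density was 8.47 per Mb (6.85 to 10.4, 95 regions), and over the same distances downstream it was 5.66 per Mb (4.50 to 7.03, 82 regions). Over the whole window within 1 kb it was 6.05 per Mb (5.23 to 6.95), and in the flanks from 1 to 3 kb on both sides it was 5.79 per Mb (5.20 to 6.42, 355 regions). The 2 intervals overlap, so over the whole 1 kb window an excess of recurring regions over the nearby flanks was not detectable. The name of the set describes the place of its members and not an enrichment over that window. From 200 to 1000 bp upstream alone, the interval lay above that of the pooled flanks. It overlapped that from 1 to 3 kb upstream (6.23 per Mb, 5.34 to 7.22). Regions called in 1 library showed the same dip, with 41.0 per Mb within 200 bp (36.4 to 46.1) and 70.2 per Mb over both the 1 kb window and the flanks. From 200 to 1000 bp upstream they had 82.0 per Mb (76.8 to 87.5), against 71.3 (68.3 to 74.5) from 1 to 3 kb upstream. The G or C content of the sequence also fell at the end, to 40.2% in the 200 bp before it, against 44.9% from 200 to 1000 bp upstream and 44.2% downstream. The part of base composition in the dip was not tested.

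**Figure D1:**
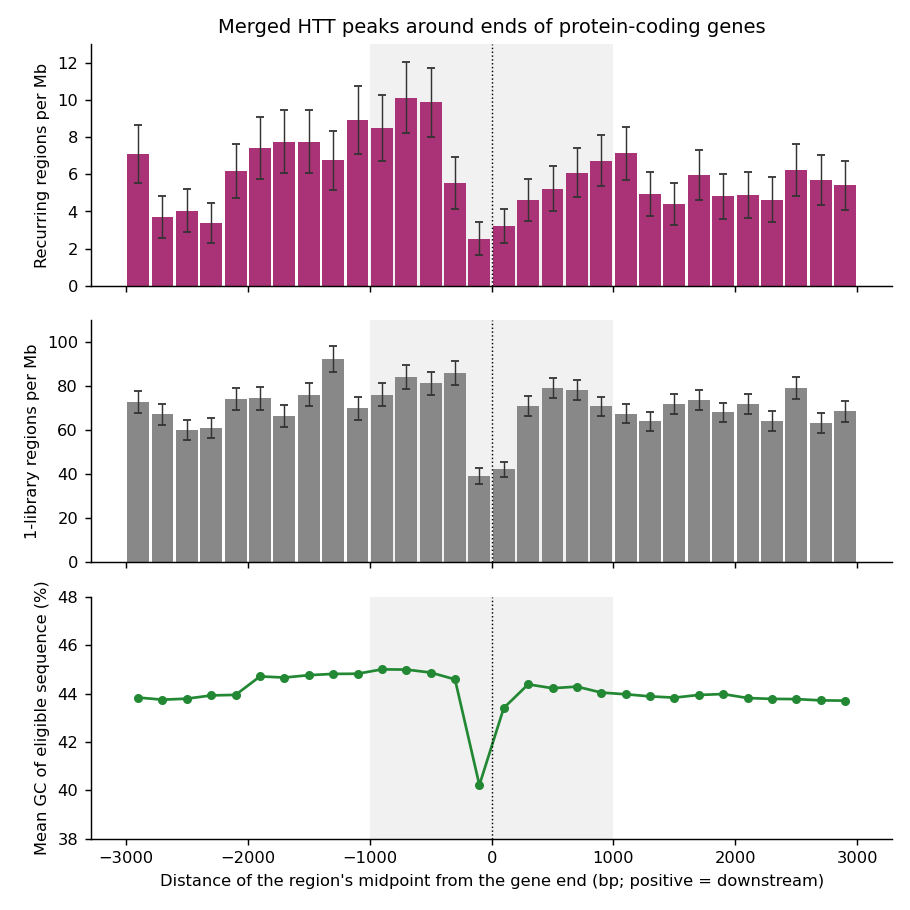
Merged HTT peaks per Mb of eligible sequence in 200-bp bins of distance from gene ends, for recurring regions (top) and regions of 1 library (middle), with the square root of the count as error bars, and mean G or C content in percent (bottom). The shaded band is the 1 kb window that defined the members; densities and G or C content are lowest in the bins beside the end, with 2.54 and 3.22 recurring regions per Mb.

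Inside the window the members lay on both sides of the gene end. Downstream were 94 of 197 (47.7%, interval 40.9% to 54.7%), against 54.3% of 1-library 3′ end regions (52.3% to 56.4%) and 56.4% of the 300-bp tiles of eligible sequence. Of the 3-library regions, 13 of 21 were downstream. By annotation 65 midpoints (33.0%) lay in an exon of the gene outside its coding sequence, 38 (19.3%) in an intron of the gene and 80 (40.6%) outside any gene. Another gene's exon held 7 midpoints, another gene's intron 6 and a noncoding gene 1. An exon of the gene was the place of 34.0% of 1-library regions. Although no midpoint lay in coding sequence, 59 regions (29.9%) overlapped a coding exon with some part of their length. The nearest annotated start site was 1 to 2 kb away for 24 members, 2 to 10 kb for 106 and farther for 67, with a median of 6504 bp, against 6597 bp for 1-library regions. The member nearest to the 1 kb limit from the gene end was at 9130011E15Rik (1000 bp), and the first recurring region beyond it was at Angpt4 (1006 bp). For the start site, the nearest member was at Odf3l2 (1073 bp) and the nearest region left out was at 6530409C15Rik (935 bp). Of the 197, 16 had the ends of 2 or more protein-coding genes in the window, and the nearest end gave the gene name.

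Few members sat where the RNA is cut. Of the 20 regions within 200 bp of the annotated end, 8 had their midpoint in an exon of the gene and 2 had a peak in 3 libraries, at Anapc7 and Mafa. The others included Dctn1 (63 bp upstream), the second region of Med25 (24 bp upstream), Alpl (7 bp downstream) and Yipf2 (38 bp downstream). AATAAA on the gene's strand was in the 300 bp around the midpoint of 6 of these 20 (30.0%, interval 14.5% to 51.9%), against 114 of 282 1-library regions equally near the end (40.4%) and 66.2% of tiles centred on gene ends. Even there the members were richer in G or C, with a median of 53.7% against 49.8% in the 1-library regions and 41.3% in the tiles. Without the HttQ111/+ ASO library 12 of the 20 still had peaks in at least 2 libraries.

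Members were rich in G and C. In the 300 bp around the midpoint the median was 55% (quartiles 51.3% and 58.3%, range 41.0% to 76.7%), against 51.0% in 1-library 3′ end regions and 44.3% in the tiles. The 3-library members had a median of 58.0%. Recurring regions of introns and of the intergenic genome both had 53.3%, those of coding exons 61.0% and those of start sites 71.0%, so the members lay near the intronic and intergenic regions. Without the HttQ111/+ ASO library the median of the members left was 55.7%.

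Motifs were searched as letters in the same 300 bp. AATAAA on the gene's strand was in 16 members (8.12%), in 11.1% of 1-library regions and in 24.5% of the 114096 tiles. ATTAAA, its variant, was in 13 members (6.60%), 7.65% of 1-library regions and 16.2% of tiles. Both A- and T-rich signals were thus less frequent in members than in the sequence the members could have come from. Letters rich in G and C went the other way: searched on both strands, GGGCGG, the GC box bound by SP family factors, was in 20 members (10.2%), 7.47% of 1-library regions and 4.21% of tiles. CACGTG, an E-box, was in 18 members (9.14%), 5.81% of 1-library regions and 3.71% of tiles. GGGGG was in 87 members (44.2%), 39.8% of 1-library regions and 31.9% of tiles. The AP-1 letters TGACTCA were in 6 members (3.05%) against 4.86% of tiles, and the CRE letters TGACGTCA in 0 members against 0.162% of tiles. A run of 4 CAG units was in 1 member (0.508%) and in 0.156% of tiles, and a run of 6 CA units was in 6 members (3.05%) and in 3.99% of tiles. GGGCGG and GGGGG can overlap, and a match of letters is not a bound site.

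**Figure D2:**
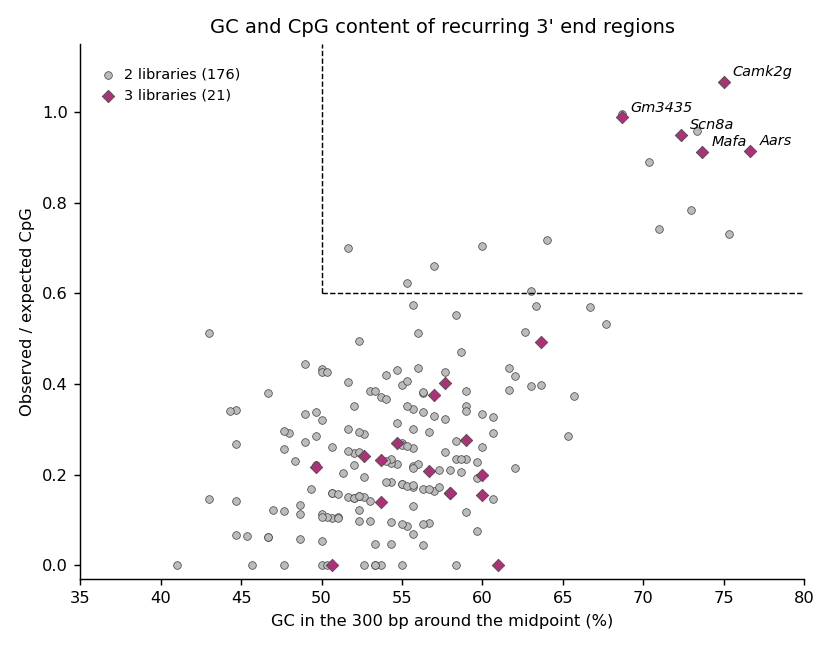
G or C content in percent (horizontal axis) and observed over expected CpG (vertical axis) in the 300 bp around the midpoint of each of the 197 members, with 2-library regions as grey circles and 3-library regions as purple diamonds. Dashed lines bound the CpG-dense corner, which holds 17 members, 5 of them with a peak in 3 libraries and named.

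A small group of members was CpG-dense, defined after the values were seen as at least 50% G or C and observed over expected CpG of at least 0.6. The group had 17 members (8.63%, interval 5.46% to 13.4%), against 24.0% of all recurring regions, 1.62% of 1-library 3′ end regions and 0.542% of tiles. Among recurring regions CpG-dense sequence made up 74.7% at start sites, 31.8% in coding exons, 5.24% in introns and 7.22% outside genes. Of the CpG-dense 3′ end regions 17 of 54 recurred (31.5%, 20.7% to 44.7%), against 180 of 2431 others (7.40%, 6.43% to 8.51%). CpG-dense members were 5 of the 21 with a peak in 3 libraries and 12 of the 176 with a peak in 2. Their midpoints lay 1080 to 69296 bp from the nearest annotated start site with a median of 8213 bp, and 14 of 17 were at least 2 kb away. Their midpoints were in an exon of the gene in 6, in an intron of the gene in 4 and outside any gene in 7.

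The CpG-dense members carried many of the deepest peaks. Their highest read number had a median of 8, against 4 in the other 180 members, and 12 of 17 (70.6%) had 5 or more reads in at least 2 libraries, against 25 of 180 (13.9%). At Aars, which encodes alanyl-tRNA synthetase, the region chr8:113580329-113581174 in an exon of the gene held 11 reads in untreated and 15 in ASO-treated Htt+/+ cortex and 8 in untreated HttQ111/+ cortex, with fold enrichments of 4.56, 5.07 and 4.24. At Camk2g, the gamma subunit of calcium/calmodulin-dependent kinase II, chr14:21553193-21553831 held 10, 10 and 11 reads in the same order, with fold enrichments of 4.16, 3.84 and 5.33. Neither gene had a peak in HttQ111/+ ASO. At Scn8a, a voltage-gated sodium channel of neurons, chr15:100876737-100877042 held 10, 13 and 7 reads with fold enrichments of 4.16, 4.41 and 3.01. At Mafa, a transcription factor best known in pancreatic beta cells, chr15:75576872-75577388 held 11, 7 and 7 reads, and at the predicted gene Gm3435, chr17:15160585-15161178 held 6, 10 and 6. All 5 of these 3-library regions had peaks in the same 3 libraries and none in HttQ111/+ ASO.

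The other 12 CpG-dense regions had a peak in 2 libraries. Tbx2, a T-box factor, had 8 reads in Htt+/+ ASO and 12 in HttQ111/+ untreated, with fold enrichments of 7.16 and 12.3. Tlx3, a homeobox factor of neuronal fate, had 11 reads in Htt+/+ untreated and 8 in HttQ111/+ untreated, with fold enrichments of 7.30 and 6. Npas4, a transcription factor induced by neuronal activity, had 8 reads in Htt+/+ ASO and 8 in HttQ111/+ untreated, with fold enrichments of 4.13 and 4.57. Hcn2, a pacemaker channel, had 7 reads in Htt+/+ ASO and 6 in HttQ111/+ untreated. Cdh22, a cadherin, had 7 reads in Htt+/+ untreated and 8 in HttQ111/+ untreated. Sim2, a bHLH-PAS factor, was the CpG-dense region with a peak in HttQ111/+ ASO, where it had 5 reads beside 4 in Htt+/+ ASO. The remaining 6, at Prr7, Efna2, Ano4, Hoxc12, Lsm10 and Prdm6, had between 2 and 9 reads in each library with a peak.

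The CpG-dense and other members differed by library. Taking the untreated and ASO libraries of Htt+/+ first and those of HttQ111/+ next, a peak was held by 11, 13, 14 and 1 of the 17 CpG-dense members, which are 64.7%, 76.5%, 82.4% and 5.88%. Of the other 180 members 107, 78, 114 and 77 held one, which are 59.4%, 43.3%, 63.3% and 42.8%. Summed over the 17, the reads at the summits were 80, 102, 99 and 5. The same contrast was present over all recurring regions, where 64.6%, 74.0%, 81.2% and 17.8% of 3327 CpG-dense regions had a peak, against 57.3%, 52.4%, 59.0% and 43.3% of 10534 others, so it was not particular to gene ends. Of the 10 members with 10 or more reads in some library, 7 were CpG-dense and 10 had no peak in HttQ111/+ ASO. That library reached at most 8 reads at any member. The cut of 10 reads could thus be passed only through the other libraries, and the count of 10 is a description. Of the 12 members with 6 or more reads in HttQ111/+ ASO, 0 were CpG-dense. Over all 197 members 8.63% were CpG-dense and 39.6% had a peak in HttQ111/+ ASO, and 1 of those 78 was CpG-dense. With a count of 0 read as at most 3, 0 of 12 cannot be told from 8.63%. The same counts were not made over all recurring regions. Genotype, treatment and library cannot be told apart in a single library.

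**Figure D3:**
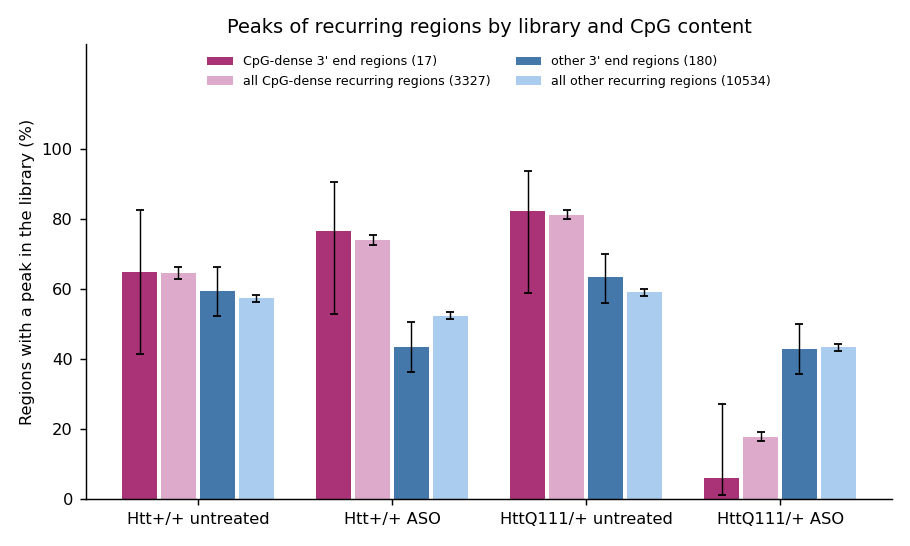
Share of recurring regions with a peak in each library in percent, for CpG-dense and other 3′ end members and for all CpG-dense and other recurring regions, with 95% Wilson intervals as bars. The CpG-dense bars fall in HttQ111/+ ASO, to 5.88% of members and 17.8% of all recurring regions, while the other members were at 42.8% there.

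The 21 regions with a peak in 3 libraries were split by reads into a deep and a thin set, with a cut that was not planned. In the deep set 7 had 6 or more reads in every library with a peak, at Gm6483, Aars, Camk2g, Scn8a, Mafa, Gm3435 and Tesc. All 7 were without a peak in HttQ111/+ ASO, as were 9 of the 21. Among all recurring regions with a peak in 3 libraries, 1225 lacked one in HttQ111/+ ASO. Those that lacked another library numbered 210, 295 and 276. The share by reads was not taken over all recurring regions. Gm6483, a predicted gene, had the most reads of all members, with 9 in untreated Htt+/+, 13 in ASO-treated Htt+/+ and 13 in untreated HttQ111/+ cortex at chr8:19698545-19698985. Its fold enrichments were 3.01, 3.31 and 2.44, so the local background was high as well. The median 31-base word from it occurred 4 times in the genome. Tesc, a calcium-binding regulator of a sodium/proton exchanger, had 7, 7 and 6 reads in the same libraries at chr5:118511410-118511680 in its intron. The other 14 had at most 3 to 7 reads in any library, and 2 of them were without a peak in HttQ111/+ ASO. Their upper end met the 7 reads of Tesc, so no gap separated the sets.

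Among the thin set, the rule for naming genes took the 5 three-library members with the highest lowest fold enrichment. Tll2, a secreted metalloprotease, had 3 and 4 reads in untreated and ASO-treated Htt+/+ and 3 in untreated HttQ111/+, with fold enrichments of 5.50, 6.45 and 5.45 at chr19:41157687-41158058, 598 bp downstream of the gene. Psmd9, a chaperone of proteasome assembly, had 3 and 4 reads in untreated and ASO-treated Htt+/+ and 4 in ASO-treated HttQ111/+, with fold enrichments of 5.82, 7.11 and 5.44 in an exon of the gene at chr5:123699091-123699622. Rasal2, a Ras GTPase-activating protein, had 3 reads in untreated Htt+/+ and 4 in each of both HttQ111/+ libraries, with fold enrichments of 5.34, 7.11 and 5.72. In each of these 3 genes the summits rested on 3 or 4 reads. 4930569F06Rik had 3, 3 and 4 reads in Htt+/+ ASO, HttQ111/+ untreated and HttQ111/+ ASO. Anapc7, a subunit of the anaphase-promoting complex, had 4, 4 and 5 reads in Htt+/+ untreated, Htt+/+ ASO and HttQ111/+ untreated at chr5:122894833-122895278, 135 bp downstream of the gene, with fold enrichments of 4.53, 4.62 and 5.84. Of the others, Map2k1, the kinase MEK1, had 3 reads in Htt+/+ untreated, 2 in HttQ111/+ untreated and 7 in HttQ111/+ ASO, and was the member of the 21 highest in that library.

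Med25, a subunit of the Mediator complex that links transcription factors to RNA polymerase II, was the gene with 2 regions. The first, chr7:52133734-52134431, was centred 678 bp downstream of the gene and had 3 reads in untreated Htt+/+, 4 in untreated HttQ111/+ and 5 in ASO-treated HttQ111/+ cortex. The second, chr7:52134508-52135061, was centred 24 bp upstream of the end and had 7 reads in HttQ111/+ untreated and 8 in HttQ111/+ ASO. Both regions had peaks in both HttQ111/+ libraries and none in Htt+/+ ASO.

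**Figure D4:**
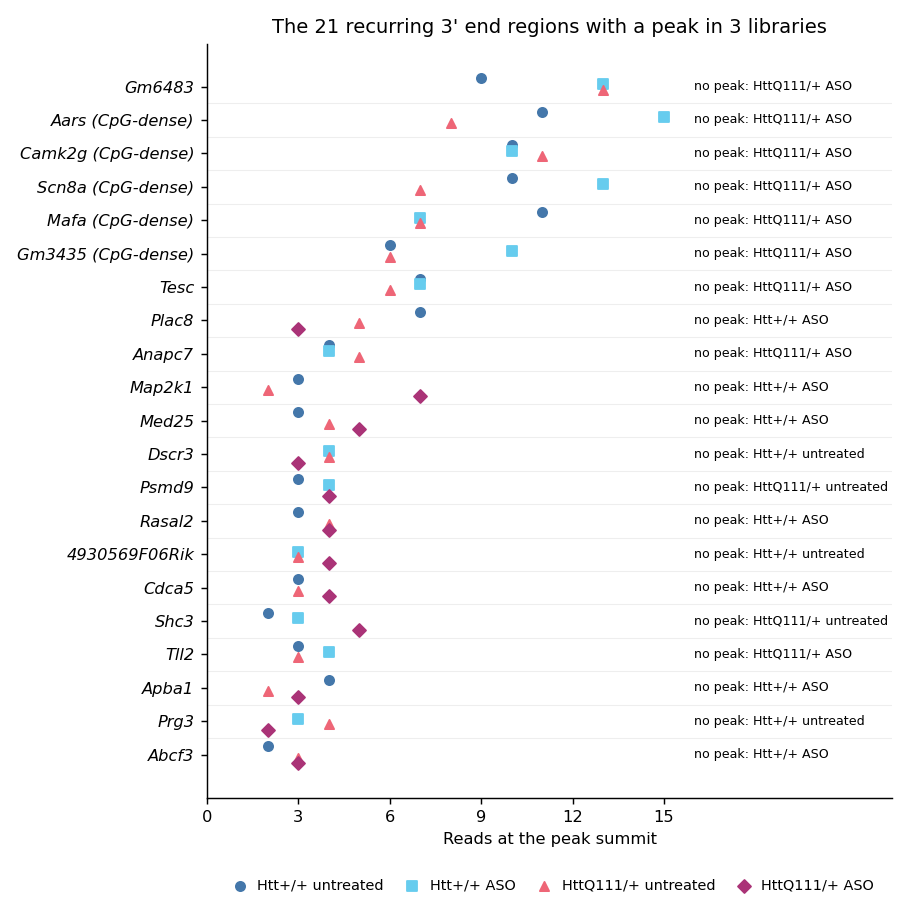
Reads at the peak summit (horizontal axis) in each library with a peak for the 21 regions with a peak in 3 libraries, ordered by summed reads; the text at the right names the library without a peak. The 7 regions at the top have 6 or more reads in each library called and no peak in HttQ111/+ ASO, and the others reach 3 to 7 reads.

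Members were looked up in 20 gene lists, of which 10 held a member. Of the 2337 genes on the lists 14 had one (0.599%, interval 0.357% to 1%), beside 0.915% of all protein-coding genes, and olfactory receptor and Zfp genes made up most of the 2337 and 3 of the 14. Dctn1, the dynactin subunit that joins HTT in axonal transport, was 1 of 36 HTT partners and transcription regulators, with 8 reads in Htt+/+ untreated and 5 in HttQ111/+ untreated at chr6:83149711-83150384. Its median 31-base word occurred in 2 copies. Kcnh3 and Kcnip3 were 2 of 93 genes on the potassium channel list (2.15%, interval 0.592% to 7.51%). Kcnip3 encodes a channel-interacting protein and not a channel. Kcnh3, a voltage-gated channel of forebrain neurons, had 8 reads in Htt+/+ untreated and 6 in HttQ111/+ untreated, while Kcnip3 had 2 in HttQ111/+ untreated and 4 in HttQ111/+ ASO. Scn8a was 1 of 40 calcium and sodium channel genes and Npas4 1 of 40 activity-induced genes (2.5% each, interval 0.443% to 12.9%). Neurod6, a bHLH factor of cortical projection neurons, was 1 of 29 neuron markers (3.45%, interval 0.611% to 17.2%) and had 6 reads in both untreated libraries. Atp1b2, a sodium pump subunit of astrocytes, was 1 of 14 astrocyte markers and had 4 reads in Htt+/+ untreated and 2 in HttQ111/+ untreated.

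Among gene families, Hox genes, which set position along the body axis, had 3 of 40 with a member (7.50%, interval 2.58% to 19.9%, beside 0.915% of all genes). These were Hoxc12, Hoxb1 and Hoxd8, each with 2 to 4 reads per library, and of them Hoxc12 alone was CpG-dense. The Hox share was the highest of the 20 lists and rests on 3 thin regions. Zinc finger Zfp genes had 1 of 362, at Zfp512, with 5 reads in Htt+/+ ASO and 3 in HttQ111/+ untreated. Olfactory receptor genes had 2 of 1106 (0.181%, interval 0.0496% to 0.657%), at Olfr869 and Olfr157, with 3 or 4 reads per library. Oxidative phosphorylation genes had 1 of 89, at Ndufa2, with 2 and 3 reads in the untreated libraries. No member was found at striatal projection neuron identity genes (0 of 34, which allows a share of up to 8.82%), chromatin modifiers (0 of 94, up to 3.19%), synaptic genes (0 of 104, up to 2.88%) or glutamate and GABA receptors (0 of 43, up to 6.98%). The same was true of ribosomal protein genes (0 of 79, up to 3.80%), histone genes (0 of 79, up to 3.80%), the machinery of 3′ end processing and termination (0 of 31, up to 9.68%), and the short lists of oligodendrocyte (0 of 13, up to 23.1%), microglia (0 of 14, up to 21.4%) and endothelial markers (0 of 9, up to 33.3%). Of single genes that the study discusses in striatum, Htt, Ppp1r1b, Pde10a, Rgs9, Sox11 and Foxp2 had 0 merged 3′ end regions in each of the 4 cortex libraries, although between 200 bp (Ppp1r1b) and 2000 bp (Htt, Foxp2) of their windows met the position conditions.

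Some genes had recurring regions at both ends. Of the 196 genes 36 (18.4%, interval 13.6% to 24.4%) also had a recurring region within 1 kb of an annotated start site, against 13.8% of all protein-coding genes and 14.5% (13.1% to 16%) of the 2154 genes with a 1-library 3′ end region. Tesc, Rasal2, Map2k1, Abcf3, Kcnh3 and Prr7 were among the 36. The interval of the members reaches the value of 1-library genes. Genes with a member were somewhat longer, with a median of 19612 bp against 15535 bp over all protein-coding genes. The exclusion of sequence near start sites takes window from short genes, and 19713 of 21418 genes had at least 500 bp left. The length of genes with a 1-library 3′ end region was not compared.

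Repeated sequence accounted for a minority of members. The median of 3 words of 31 bases occurred more than once in the genome for 22 of 197 (11.2%, interval 7.49% to 16.3%), against 9.40% of 1-library regions and 9.14% of tiles. It occurred more than 10 times for 8 of 197. A region with only 1 repeated word of 3 is not counted here. The most repeated was the intronic region at Clca6, a chloride channel regulator, whose median word occurred 27191 times. It had 10 reads in Htt+/+ untreated and 13 in HttQ111/+ untreated. Of the 3-library members, Gm6483, Gm3435, Plac8 and Rasal2 had a median word in more than 1 copy, so reads there cannot be placed in 1 copy with certainty.

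The number of members with a peak differed between libraries, as it did for all recurring regions. A peak was present at 118 of 197 in Htt+/+ untreated (59.9%, against 59.0% of all recurring regions), at 91 in Htt+/+ ASO (46.2%, against 57.6%), at 128 in HttQ111/+ untreated (65%, against 64.4%) and at 78 in HttQ111/+ ASO (39.6%, against 37.2%). The Wilson intervals were 52.9% to 66.5%, 39.4% to 53.2%, 58.1% to 71.3% and 33.0% to 46.6% in that order, and since recurrence chose the members these shares are a description. Among members that were not CpG-dense the Htt+/+ ASO share was 43.3%, against 52.4% of all recurring regions of that kind. Median fold enrichment where a peak was called was 4.98, 4.96, 4.83 and 4.35, and the highest read number was 11, 15, 13 and 8. The most frequent pair of libraries was the untreated pair, with 51 members (25.9%, against 20.5% of all recurring regions), followed by Htt+/+ untreated with Htt+/+ ASO (30 members, 15.2% against 14.6%). The 2 HttQ111/+ libraries shared 29 members (14.7% against 10.2%), and Htt+/+ ASO with HttQ111/+ untreated also 29 (14.7% against 18.8%). Htt+/+ untreated, Htt+/+ ASO and HttQ111/+ untreated together held 9 members (4.57% against 8.84%).

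**Figure D5:**
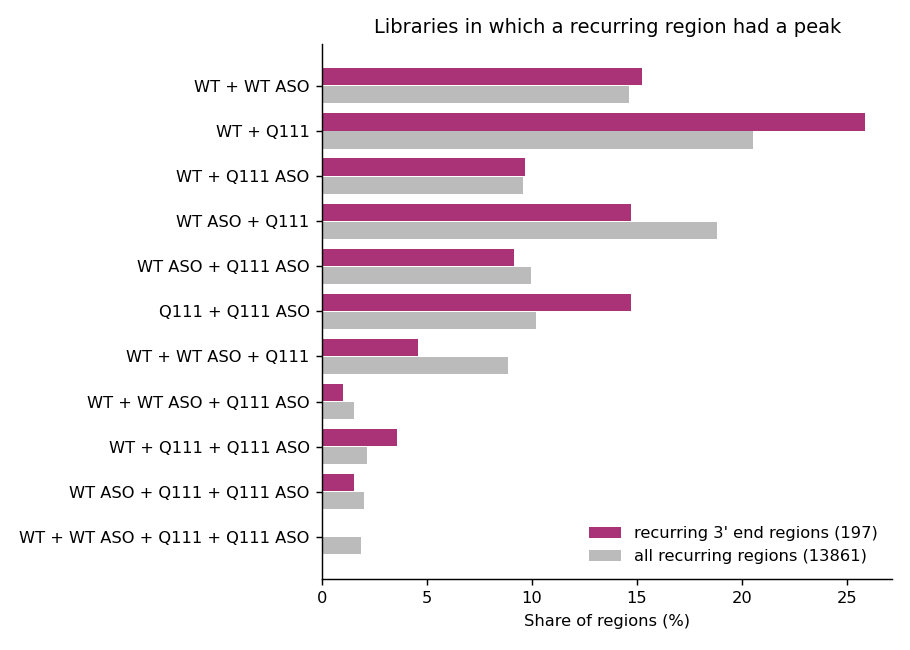
Share of the 197 members (purple) and of all 13861 recurring regions (grey) in percent by the combination of libraries with a peak; WT stands for Htt+/+ and Q111 for HttQ111/+, untreated unless ASO is written. The untreated pair leads with 25.9% of members, and no member has a peak in all 4 libraries.

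The treatment comparison asks whether HTT occupancy at these gene ends was lower after the HTT-lowering ASO. A region without a peak in a library was set to the lowest deposited fold enrichment, so most differences are between a peak and no peak, and the share of regions that were lower is a description of 2 libraries. In Htt+/+ mice 41 members had a peak in both libraries, 50 only with ASO and 77 only without. Fold enrichment was lower with ASO at 91 of 168 members (54.2%, interval 46.6% to 61.5%), beside 52.2% of all recurring regions. Where both libraries had a peak, 14 of 41 were lower and the median log2 ratio was 0.21. Among all recurring regions with a peak in both, 2032 of 3719 were lower and the median log2 ratio was -0.08. By reads relative to depth 21 of the 41 members were lower (51.2%). More members were thus called only without ASO. In the peaks that both Htt+/+ libraries shared, the smaller part was lower by fold enrichment, and by reads relative to depth the split was nearly even.

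In HttQ111/+ mice 39 members had a peak in both libraries, 39 only with ASO and 89 only without. Fold enrichment was lower with ASO at 113 of 167 members (67.7%, interval 60.2% to 74.3%), beside 69.9% of all recurring regions. Where both had a peak, 24 of 39 were lower with a median log2 ratio of -0.20, beside 1587 of 2242 and -0.31 among all recurring regions. By reads relative to depth 16 of the same 39 were lower (41.0%), so the direction in shared peaks turned with the measure. The library that stood apart is the ASO library of this comparison. With each library's values divided by its median fold enrichment the share was 57.5%, beside 62.2% of all recurring regions, and without the CpG-dense regions it was 65.1%. Among the CpG-dense members with a peak in either library, 14 of 15 were lower with ASO in HttQ111/+ and 7 of 17 in Htt+/+, a difference between genotypes that could not be tested. Over both genotypes together 127 of 197 members (64.5%, 57.6% to 70.8%) were lower with ASO, beside 65.9% of all recurring regions. After division by the library medians the members' share was 53.8%, beside 57.6% of all recurring regions.

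The genotype comparison asks whether occupancy differed between HttQ111/+ and Htt+/+ cortex. In untreated mice 67 members had a peak in both libraries, 61 only in HttQ111/+ and 51 only in Htt+/+. Fold enrichment was lower in HttQ111/+ at 88 of 179 members (49.2%, interval 41.9% to 56.4%), beside 42.4% of all recurring regions. Over the 67 shared peaks 37 were lower and the median log2 ratio was -0.10. Among all recurring regions with a peak in both, 1733 of 4622 were lower and the median log2 ratio was 0.09. After division by the library medians fold enrichment was lower in HttQ111/+ at 57.0% of members, beside 49.8% of all recurring regions. The members' side of 50% thus depended on the scaling. In ASO-treated mice 23 members had a peak in both, 55 only in HttQ111/+ and 68 only in Htt+/+, and 85 of 146 were lower in HttQ111/+ (58.2%, 50.1% to 65.9%), beside 66.7% of all recurring regions. That comparison rests on the library that stood apart, and the share was 54.9% without the CpG-dense regions. After division by the library medians it was 51.4%, beside 59.4% of all recurring regions. Over both treatments 108 of 197 members (54.8%, 47.8% to 61.6%) were lower in HttQ111/+, beside 54.6% of all recurring regions. Combined over both treatments, the members' share thus lay close to that of all recurring regions. A direction by genotype could not be tested, because no group held replicate libraries.

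With 1 library left out and regions defined again from the others, 98 recurring 3′ end regions were found without Htt+/+ untreated. There were 119 without Htt+/+ ASO and 90 without HttQ111/+ untreated, and these are not all among the 197. Without the HttQ111/+ ASO library 131 of the 197 members still had peaks in at least 2 libraries, among them 16 of the 17 CpG-dense regions. Of the 131, 48.9% lay downstream of the gene end.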

How the data were processed

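Anti-HTT ChIP-seq peak lists of 4 cortex libraries were analysed. The authors aligned reads with HISAT2 after base calling with bcl2fastq 2.17, per the methods down-sampled the ChIP libraries to the smallest (depths recovered here still differed by up to 1.24 times), merged 4 inputs into 1 control and called peaks per library with MACS2. The deposited lists give a fold enrichment (a linear ratio), −log10 p-values and q-values and an integer score per peak, with none below a −log10 p-value of 3.00. The labels name mm9 and the methods mm10. No peak passed an mm9 chromosome end (0 peaks), so NCBIM37 with GENCODE vM1 was used. Depth was recovered as the 1 factor per library under which 100% of peaks came out as whole reads, to a tolerance of 0.01 in −log10 p.

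Members and gene lists were chosen with earlier results of these data known. Scripts ran in Python 3.11.15 with scipy 1.17.1, pandas 2.3.3, numpy 2.4.6 and, for plots, matplotlib 3.10.9, and were tested on simulated data. Named genes were the 5 three-library members with the highest lowest fold enrichment, the 3 with most reads, up to 2 members per list, genes with 2 members and 6 genes the study names. Others were named after their values were seen. Eligible sequence was cut into 300-bp tiles. Copies were counted for 3 words of 31 bases per region, and their median was used. Shares carry 95% Wilson intervals, a count of 0 was read as at most 3, and nothing was tested, with 1 library per group.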

Additional observations from a re-analysis of the deposited data

Results flagged for a closer look

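The CpG-dense members moved in opposite directions by treatment in the 2 genotypes. The number of them with a peak was 1.18 times as high with ASO as without in Htt+/+ (13 against 11 regions) and 0.0714 times as high in HttQ111/+ (1 against 14). All CpG-dense recurring regions had the same pattern, with 2462 against 2149 in Htt+/+ and 592 against 2702 in HttQ111/+, so it is not particular to gene ends, and the net change in Htt+/+ is of 2 members. By genotype it was 1.27 times as high in HttQ111/+ as in Htt+/+ among untreated libraries (14 against 11) and 0.0769 times among ASO libraries (1 against 13). All members together also crossed over, with 1.08 times as many peaks in HttQ111/+ as in Htt+/+ when untreated (128 against 118) and 0.857 times with ASO (78 against 91). All recurring regions crossed over the same way, with 8921 against 8184 when untreated and 5154 against 7981 with ASO. Each value is from 1 library a group, and these differences were not tested.

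Chromosome X was outside the comparisons. It had 26 merged 3′ end regions at 932 protein-coding genes, 2.79 per 100 genes against 11.6 per 100 on chromosomes 1 to 19. The single recurring region, at Mid1, a microtubule-associated ubiquitin ligase, lay 341 bp upstream of the gene end and had 31 reads in Htt+/+ untreated, 28 in HttQ111/+ untreated and 29 in HttQ111/+ ASO, with no peak in Htt+/+ ASO. The highest value, 31 reads, is above the 15 reads of the deepest member on the other chromosomes. Copies of 31-base words were not counted for this region, so whether its reads come from 1 copy is not known. The cause was not tested.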

How the results depend on the processing

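The number of members, 197, was 37 with at least 5 reads in each of 2 libraries, 21 with peaks in at least 3 libraries, 0 in all 4, 119 with an overlap of at least 50%, 78 within 500 bp of the gene end and 394 within 2 kb, and 90 to 131 when 1 library was left out (98, 119, 90 and 131 in the order Htt+/+ untreated, Htt+/+ ASO, HttQ111/+ untreated, HttQ111/+ ASO). With q under 0.01 it was 145. For the ASO in HttQ111/+, the 67.7% of members lower with ASO became 41.0%, a change of direction, for reads relative to depth in regions called in both libraries, 84.4% with at least 5 reads and 57.5% after division by library medians. The share in Htt+/+, 54.2%, became 34.1% in regions called in both (51.2% there by reads relative to depth) and 40% with at least 5 reads. Over both genotypes, 64.5% became 53.8% after division by library medians, and 54.2% to 67.7% when both libraries of 1 genotype were left out. The share lower in HttQ111/+, 49.2% when untreated, became 57.0% after division by library medians, and with ASO, 58.2% became 73.9% in regions called in both and 82.1% with at least 5 reads. With at least 3 libraries the share downstream rose from 47.7% to 61.9%. The median G or C content of whole regions, 54.6%, became 57.8% with at least 3 libraries, 61.6% with at least 5 reads and 55.6% without HttQ111/+ ASO. The share of genes with a recurring start-site region, 18.4%, became 13.2% with q under 0.01 and 13.5% with at least 5 reads. In all, 25 alternative values moved, 1 turned a share whose interval excluded 50%, and 53 did neither. Shares whose interval held 50% also crossed it, the Htt+/+ ASO share as above and the untreated genotype share at 57.0% and, in regions called in both, 55.2%. The causes were not tested. The alternatives on CpG-dense regions, on repeated words and on G or C content, position and the CpG-dense number without HttQ111/+ ASO were chosen after seeing the data. Shares over members with peaks in all 4 libraries had no value, since there were 0. No paired analysis was possible because each group held 1 library and the labels carry no replicate numbers that pair libraries. Depth limits every value here, with at most 4 reads in every library at 117 of 197 members.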
